A study of Mus musculus with 7 samples.

Results

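The zinc finger genes numbered Zfp600 to Zfp999 were followed in chromatin-associated RNA of mES cells in which METTL3, the methyltransferase that deposits m6A on RNA, was inhibited. Members were taken by name alone: a symbol made of Zfp and a number from 600 to 999, with an optional letter after it, in a row that is not on the X chromosome. The rule found 143 of the 22556 genes in the expression table, and 132 of them had a mean of at least 1 RPM (read pairs scaled to a fixed library total on genes) over the libraries and were tested. The 201 autosomal genes named Zfp1 to Zfp599, of which 189 were tested, served as the nearest family for comparison.

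All libraries came from C7H8, a single clone of iXist-ChrX Cast XX mES cells (Cast x 129S) that were grown on inactivated mouse fibroblast feeders and in which doxycycline (Dox) switches on Xist from the Cast X chromosome. The groups were DMSO, with 3 libraries, and STM2457, an inhibitor of METTL3 catalysis, with 2 libraries at 10 µM and a single library each at 20 µM and 30 µM. Treatment began 6 h before Dox and went on through the 24 h of Dox, so that every group, DMSO included, carried induced Xist. ChrRNA-seq reads RNA held in the chromatin fraction, in which unfinished transcripts are enriched, and read pairs were counted over exons and introns. Replicate numbers 1 and 2 are shared by the DMSO and 10 µM libraries.

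Most of these genes encode C2H2 zinc finger proteins, in which each finger holds a zinc ion and reads a few bases of DNA, and many of them carry a KRAB box, which recruits the corepressor Trim28 and through it the H3K9 methyltransferase Setdb1. KRAB zinc finger proteins are best known for silencing retroelements in embryonic stem cells. Their genes arose by tandem duplication and often lie in clusters of near copies, and the fingers are usually encoded by 1 long last exon.

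The libraries held 9300549 (20 µM) to 28030180 (DMSO 2) read pairs on genes, so that 1 read pair was worth 0.108 RPM at 20 µM. They fell into 2 sets that dose does not define. Principal component 1 of 12971 autosomal genes outside the member list held 78.8% of the variance and parted DMSO 1, DMSO 2 and both 10 µM libraries (set 1) from DMSO 3 and the 20 µM and 30 µM libraries (set 2). The difference between the sets and the effect of the 2 higher doses can be told apart only through DMSO 3. Of the pluripotency markers, 9 of 10 were detected, with Sox2 listed at 0 in every library. Their summed level was 1999 to 2235 RPM in set 1 and 1667 to 1889 RPM in set 2, and 4 of the 9 tested, among them Klf4 and Dppa5a, were wholly below set 1 in set 2 and 0 above, against 39.8% and 18.7% of all genes tested. Fibroblast markers summed to 877 to 1156 RPM in set 1 and 438.6 to 614.5 RPM in set 2, nearly all of it Fn1, while the collagen genes Col1a1, Col1a2 and Col3a1 stayed below 1 RPM in every library. Of the 5 fibroblast markers tested, set 2 lay wholly below set 1 for 2 and wholly above for 2 (Col5a2 and Thbs1), beside the same shares of all genes. Primitive endoderm markers summed to 467.1 to 502.8 RPM in set 1 and 302.1 to 410.5 RPM in set 2, most of it Lama1. Of the 4 tested, set 2 lay wholly below set 1 for Lama1 and wholly above for Dab2, again beside the same shares of all genes. The part of these differences in the values below was not tested.

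The long finger exon was visible in the annotated coding sequences (GENCODE M21, mm10), which were found for 140 members. The median member had 4 coding exons and held 86.5% of its coding bases in the longest one, against 9 exons and 23.8% for 12339 other genes tested. A median of 10 finger patterns per gene was found, from 0 to 33 (Zfp619), and 121 of 140 members had at least 5. No such pattern was found in Zfp703, Zfp750, Zfp839, Zfp935 and Zfp957. The sequence searched for Zfp935 had only 450 coding bases, against a median of 1686 for members, so fingers outside it would be missed. A loose KRAB box pattern was found in 84 of 140 members and in 126 of the 12339 other genes. The linker between fingers gives the coding sequence a repeated base pattern. Members held a median of 3.16 AAACC words per kb of coding sequence, against 0.80 in other genes, and 0.71 GGACT words, against 1.08. GGACT is the commonest form of the sequence at which METTL3 methylates adenosine. A single repeat of 84 coding bases (28 codons), starting at the first cysteine of a finger, is shown for 3 members whose levels are described below, with AAACC in capitals.
Zfp942: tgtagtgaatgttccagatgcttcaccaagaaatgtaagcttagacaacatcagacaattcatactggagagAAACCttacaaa
Zfp944: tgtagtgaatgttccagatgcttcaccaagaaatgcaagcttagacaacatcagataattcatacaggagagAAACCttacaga
Zfp937: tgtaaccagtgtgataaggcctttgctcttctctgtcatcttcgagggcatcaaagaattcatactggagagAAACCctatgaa
The repeats of Zfp942 and Zfp944, at coding bases 553 to 636 of both genes, differed at 4 of 84 bases, whereas that of Zfp937, at bases 397 to 480, differed from Zfp942 at 31. Each repeat shown was the first finger repeat found in its gene that held AAACC, and none of the 3 held GGACT. So short a piece does not speak for the gene. Over the whole coding sequence GGACT was at 1.37 per kb in Zfp942, 1.355 per kb in Zfp944 and 0 in Zfp937.

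Near copies can limit what unique alignments count. Of the members' 140 transcripts, 97 shared no 81-base window, the length of 1 read, with a transcript of a gene at another place in the annotation, and 10 shared more than 20% of them. The shares were highest for Zfp960 (74.9%, mostly with Zfp97) and Zfp600 (74.4%, mostly with Rex2). Zfp617 (37.8%), Zfp932 (36.4%), Zfp955a (34.4%), Zfp780b (28.5%), Zfp931 (25.2%), Zfp955b (25%), Zfp934 (24.3%) and Zfp808 (23.1%) followed. The levels of these 10 genes are therefore uncertain. Introns, which are also counted, were not compared. Other members shared windows with gene models that overlap them at the same place, as Zfp708 and Zfp935 did for all of theirs, and how such models were treated in counting was not tested. Zfp810 was listed at 0 in all 7 libraries, and its whole length lies inside a row for Mir680-2 on the same strand. Zfp783 and Zfp956 overlap by 1161 bases on the same strand, and Zfp708 overlaps Rslcan18 by 1365 bases, so their shared parts cannot be assigned. The Mir680-2 row also covers 13634 bases of Zfp653 on the same strand, so the level of Zfp653 is uncertain too.

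Members were spread over 18 chromosomes, with 33 on chromosome 7, 21 on chromosome 17, 16 on chromosome 8 and 12 on chromosome 13. Together they took 0.634% to 0.739% of the read pairs of a library. The median level of the members tested was 23.2 RPM, against 21.6 RPM for all genes tested, and per kb of gene length it was 1.51 RPM, against 1.08 RPM. The highest total level was that of Zfp704, at 750.9, 848.6 and 794.2 RPM in DMSO 1, 2 and 3, 728.4 and 750.6 RPM in 10 µM 1 and 2, 672.6 RPM at 20 µM and 818.4 RPM at 30 µM. Zfp644, whose product works with the H3K9 methyltransferases G9a and GLP, followed with a mean of 558.2 RPM, and Zfp808 (336.5 RPM), Zfp936 (267.5 RPM) and Zfp934 had the next levels. Zfp704 spans 183 kb, and per kb the order changed. Zfp936, on chromosome 7, had the highest level per kb, 18.4 RPM, with Zfp655 (8.14 RPM per kb), Zfp808 (7.64) and Zfp646 (7.13) behind it, while Zfp704 was at 4.19. At the low end Zfp804a was at 0.0065 RPM per kb over 206 kb and Zfp804b at 0.078 RPM per kb over 575 kb.

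The 11 members below 1 RPM were Zfp616, Zfp641, Zfp648, Zfp663, Zfp703, Zfp735, Zfp773, Zfp784, Zfp810, Zfp831 and Zfp957. Zfp784 (126 read pairs over the 7 libraries) and Zfp773 (136) were closest to the minimum, and the other genes had 28 read pairs or fewer. Zfp703, which encodes a corepressor studied in breast cancer, had 17.

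The first comparison, 10 µM STM2457 against DMSO, asked which members responded to the lowest dose. With all 3 DMSO libraries and no pairing, limma called 0 of 132 members, against a background of 0% of the 13599 genes tested. At an unadjusted p under 0.05 it held 5 members (Zfp629, Zfp706, Zfp937, Zfp942 and Zfp963) and 212 genes (background 1.56%). edgeR and DESeq2 called 0 members too, with 3 (background 1.65%) and 4 (background 2.91%) at an unadjusted p under 0.05. Libraries of the same replicate number deviated together, with a correlation of 0.621 over all genes tested and 0.572 over the members, and a general statement of the study on its cultures says that wells of a biological replicate came from one batch, without naming these libraries. The pairing rests on that statement and on the shared numbers. Blocking on the replicate number, which uses DMSO and 10 µM replicates 1 and 2 and leaves DMSO 3 out, gave calls for 11 members (8.33%), against a background of 7.5%. Of these, 9 rose (6.82%; background 4.13%) and 2 fell (1.52%; background 3.38%). Among Zfp1 to Zfp599, 14 of 189 rose (7.41%) and 2 fell (1.06%), so the members' share of rises was close to that of the rest of the family. All log2 changes below are differences of log2(RPM + 1), which understates the change of low genes, and adjusted p-values are from limma with the block unless named otherwise. Of the 5 fibroblast markers tested, Fn1 fell with the block (-0.26 ± 0.06 SE, adjusted p = 0.0016) and 0 rose. Of the 9 pluripotency and 4 primitive endoderm markers tested, 0 were called. The part of the fall of Fn1 in the members' values was not tested. In these bulk samples a change in the RNA of each cell and a change in the number of cells that express a gene cannot be told apart.

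**Figure D1:**
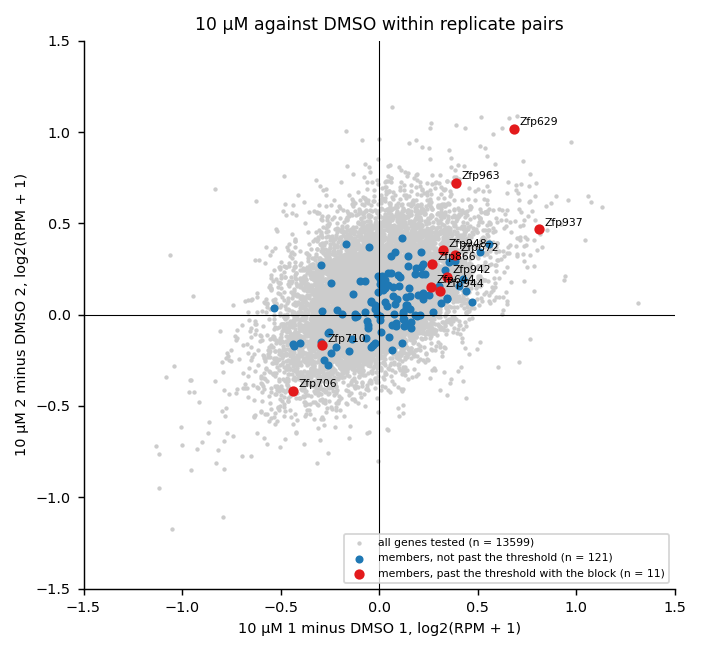
Difference in log2(RPM + 1) between 10 µM and DMSO in replicate pair 1 (x axis) and pair 2 (y axis) for each of 13599 genes (grey) and 132 members (blue; red where past the threshold with the replicate block). The 9 members that rose lie in the upper right, with Zfp629 and Zfp937 farthest out, and the 2 that fell, Zfp706 and Zfp710, lie in the lower left.

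The largest rise was that of Zfp629, a gene of 19 finger patterns with no KRAB box pattern that lies at chr7:127607034-127614433 on the minus strand. Its level was 6.12, 6.56 and 1.72 RPM in DMSO 1, 2 and 3, 10.5 and 14.3 RPM in 10 µM 1 and 2, 2.36 RPM at 20 µM and 2.10 RPM at 30 µM. Both 10 µM libraries exceeded every other library, and the 3 libraries of set 2 were all below set 1. The paired ratios were 1.71 and 2.18, the 20 µM and 30 µM libraries were at 1.37 and 1.22 times DMSO 3, and the log2 change was 0.85 ± 0.16 (SE; adjusted p = 2.11e-05).

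Zfp937 (chr2:150218098-150244874, plus strand) rose by 0.64 ± 0.13 (SE; adjusted p = 4.9e-05). It was at 15.1, 18.9 and 6.57 RPM in DMSO, 27.2 and 26.5 RPM at 10 µM, 10.3 RPM at 20 µM and 13.9 RPM at 30 µM. The 10 µM libraries were again the 2 highest, and at 20 µM and 30 µM the level was 1.57 and 2.12 times that of DMSO 3, the control of the same library set, but below that of the other DMSO libraries. Of the windows of its transcript, 17% were shared with genes elsewhere, mostly Zfp442.

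Zfp672 (chr11:58315113-58323365, minus strand) encodes its fingers in a single coding exon. It was at 35.1, 47.9 and 29.6 RPM in DMSO, 46.1 and 60.4 RPM at 10 µM, 22.5 RPM at 20 µM and 31.97 RPM at 30 µM, so that the DMSO and 10 µM groups overlapped, while each pair rose by a similar ratio (1.31 and 1.26). The log2 change was 0.36 ± 0.09 (SE; adjusted p = 0.0053).

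Zfp644 was at 469.8, 515.7 and 557.7 RPM in DMSO, 563.9 and 573.5 RPM at 10 µM, 600.1 RPM at 20 µM and 626.6 RPM at 30 µM. All 4 inhibitor libraries exceeded all 3 DMSO libraries. Its log2 change at 10 µM was 0.21 ± 0.06 (SE; adjusted p = 0.019), and edgeR with the block did not call it (adjusted p = 0.39).

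The members that fell were Zfp706 and Zfp710. Zfp706 encodes a small protein with a single finger that is known to restrain self-renewal of mES cells, and lies at chr15:36997026-37007402 on the minus strand. Its level was 47.4, 55.3 and 63.2 RPM in DMSO, 34.8 and 41.1 RPM at 10 µM, 53.2 RPM at 20 µM and 44.9 RPM at 30 µM. The 10 µM libraries were the 2 lowest of the 7, and the paired ratios were 0.734 and 0.744 (log2 change -0.43 ± 0.10 SE, adjusted p = 0.000571). At 20 µM and 30 µM the level was 0.843 and 0.711 times that of DMSO 3.

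Zfp710 (chr7:80024813-80092751, plus strand) was at 152.7, 156.7 and 252.2 RPM in DMSO, 124.6 and 139.2 RPM at 10 µM, 181.3 RPM at 20 µM and 248.6 RPM at 30 µM. The 10 µM libraries were the 2 lowest, and the libraries of set 2 the 3 highest. The log2 change at 10 µM was -0.23 ± 0.07 (SE; adjusted p = 0.021), and edgeR with the block gave an adjusted p of 0.078.

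**Figure D2:**
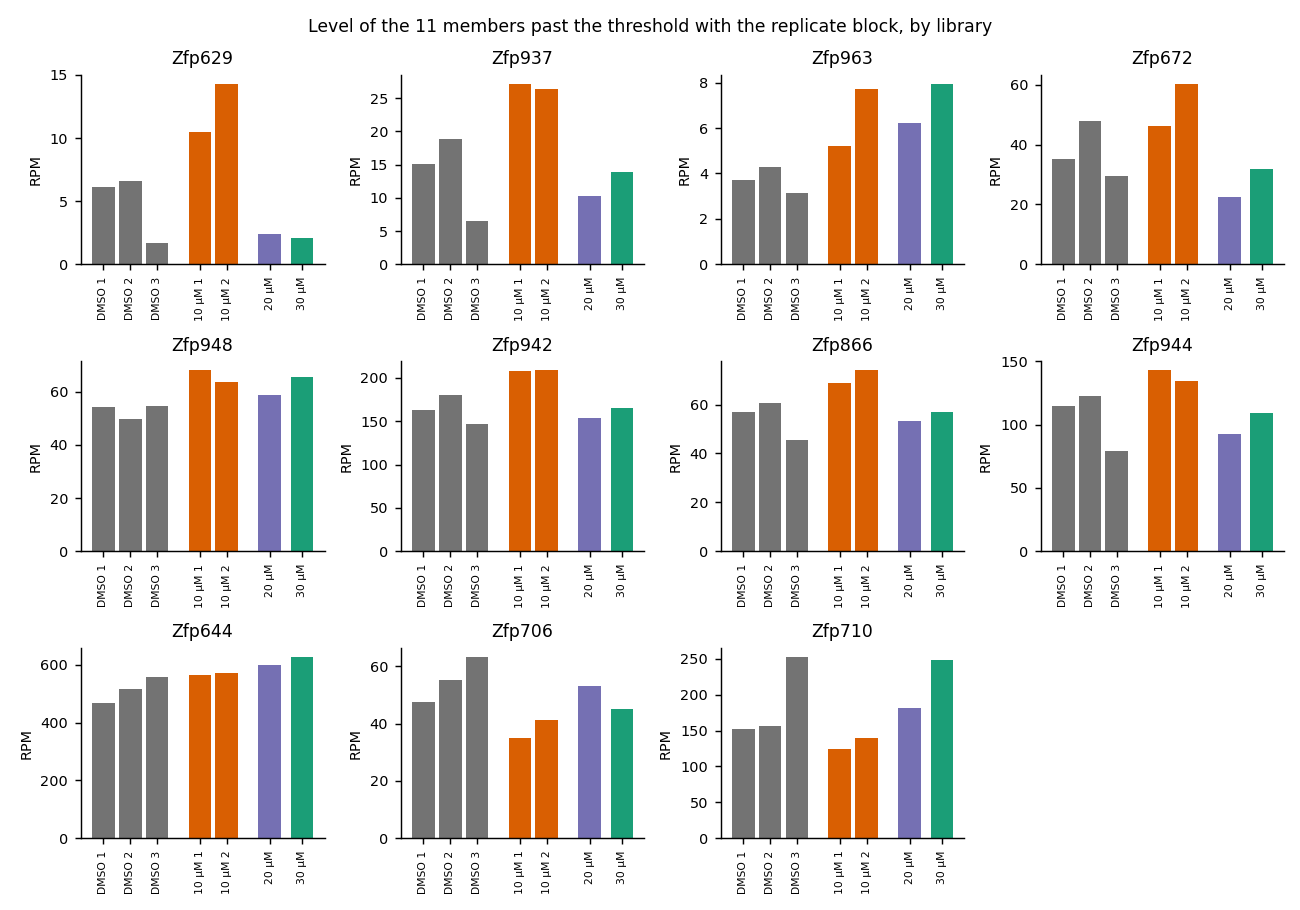
RPM (bars, y axis from 0) in each of the 7 libraries (x axis) for the 11 members past the threshold in limma with the replicate block. In 8 of the 9 members that rose and in both that fell, the 10 µM bars stand above or below those of all 3 DMSO libraries, and Zfp672 is the exception; DMSO 3 lies far from DMSO 1 and 2 for Zfp629, Zfp937 and Zfp710.

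Calls depended on the tool. edgeR with the block called 6 members (4.55%; background 6.15%), namely Zfp629, Zfp672, Zfp937, Zfp948, Zfp963 and Zfp706, and the same 6 were called by limma when TMM factors were applied to the RPM values. The 10 µM library exceeded the DMSO library of its own number in both pairs for 71 of 132 members (53.8%), against 36.3% of all genes tested and 39.2% of Zfp1 to Zfp599. It was below in both pairs for 23 members (17.4%), against 26.9% of all genes and 19% of Zfp1 to Zfp599. Both 10 µM libraries exceeded all 3 DMSO libraries for 36 members (27.3%, against a background of 16.6% and 21.2% of Zfp1 to Zfp599), and both lay below all 3 for 13 members (9.85%, against a background of 8.74% and 4.76% of Zfp1 to Zfp599). The median log2 change with the block was 0.09 for members and 0.03 for all genes, and with TMM factors 0.05 and -0.00, so the size of the typical difference was small under either scaling.

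The members' chromosome clusters were examined next. A cluster was a run of at least 4 members whose starts lie within 1 Mb of the next, and 10 such runs held 66 members, 64 of them tested. The 10 µM library was above DMSO in both pairs for 38 of the 64 and below in both for 9, and 6 rose and none fell with the block. Of the 68 tested members outside clusters, 33 were above in both pairs, 14 were below in both, 3 rose and 2 fell. Over all genes tested, 36.3% were above and 26.9% below in both pairs, 4.13% rose and 3.38% fell, and the difference between members inside and outside clusters was not tested.

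The largest cluster held 11 members within chr17:21383747-22867134. Its summed level was 718.9, 764.9 and 601.8 RPM in DMSO, 847.5 and 825.3 RPM at 10 µM, 641.4 RPM at 20 µM and 684.3 RPM at 30 µM. The 10 µM sums were the 2 highest, at 1.18 and 1.08 times their paired DMSO libraries, and the sums at 20 µM and 30 µM were 1.07 and 1.14 times DMSO 3. In both pairs 9 of the 11 members were higher at 10 µM, and none was lower in both. Zfp758 and Zfp945 were higher in pair 1 and lower in pair 2.

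Zfp942, Zfp944 and Zfp948 of this cluster rose. Zfp942 was at 163.4, 180.6 and 146.6 RPM in DMSO, 207.5 and 208.7 RPM at 10 µM, 153.8 RPM at 20 µM and 165.7 RPM at 30 µM (log2 change 0.28 ± 0.07 SE, adjusted p = 0.0019). Zfp944 was at 115.1, 122.6 and 78.9 RPM in DMSO, 142.9 and 134.2 RPM at 10 µM, 92.6 RPM at 20 µM and 109.3 RPM at 30 µM (0.22 ± 0.07 SE, adjusted p = 0.034). For both genes the 10 µM groups lay above all DMSO libraries, and the calls were not made by edgeR with the block (adjusted p = 0.090 and 0.195). Zfp948 was at 54.1, 49.6 and 54.7 RPM in DMSO, 68 and 63.6 RPM at 10 µM, 58.6 RPM at 20 µM and 65.4 RPM at 30 µM, so that all 4 inhibitor libraries exceeded all 3 DMSO libraries (0.34 ± 0.09 SE, adjusted p = 0.0040). In this gene DMSO 3 was at 1.06 times the mean of DMSO 1 and 2, against 0.853 for Zfp942 and 0.664 for Zfp944. Of the 10 other genes tested inside the span, 5 were named Zfp. Of the 10, 6 were above in both pairs and 3 were called higher, against 36.3% and 4.13% of all genes tested. Such neighbours varied between clusters. At chr13:67038593-67683512, 9 of 14 were above and 2 called higher, and at chr7:127244525-127885996, 8 of 19 were above and 0 called. At chr7:6131488-7209998, 0 of 10 were above and 2 were called lower.

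**Figure D3:**
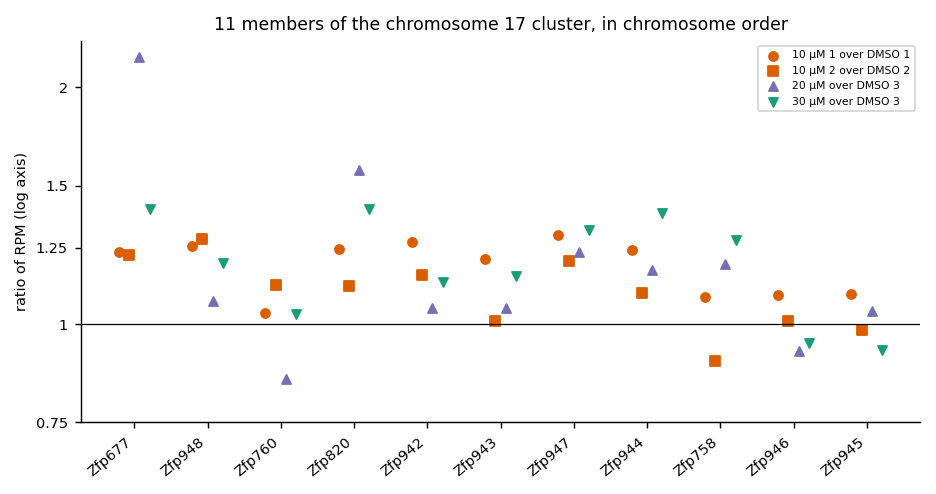
Ratio of RPM (y axis, log scale) for the 11 members of the chromosome 17 cluster in chromosome order (x axis): each 10 µM library over the DMSO library of its number (orange), and the 20 µM and 30 µM libraries over DMSO 3. Both orange points are above 1 for 9 members; Zfp758 and Zfp945 have 1 point on each side.

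The start sites of Zfp942 and Zfp944 share sequence. Each gene lies on the minus strand and is divergent from a member on the plus strand, Zfp943 and Zfp758, with only 93 and 51 bases between the starts. The bases between the starts are printed below on the plus strand (mm10, from the RefSeq promoter table), because the minus-strand genes of these closely spaced pairs, Zfp942 and Zfp944, rose. The spans are chr17:21962465-21962557 and chr17:22361401-22361451, and capitals mark the run that the pairs share.
Zfp942/Zfp943: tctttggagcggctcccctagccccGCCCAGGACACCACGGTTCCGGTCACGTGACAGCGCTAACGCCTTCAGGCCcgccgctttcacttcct
Zfp944/Zfp758: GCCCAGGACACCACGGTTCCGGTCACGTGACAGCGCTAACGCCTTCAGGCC
All 51 bases between Zfp944 and Zfp758 occurred without a mismatch at positions 26 to 76 of the other span. The next longest run shared with any other promoter window was 16 bases (Zfp946), followed by 15 bases (Eme1). The partners on the plus strand did not pass the test. Zfp943 was at 50.1, 56.1 and 42.3 RPM in DMSO and 60.7 and 56.7 RPM at 10 µM, with a log2 change of 0.14 (adjusted p = 0.37), and Zfp758 was at 46.9, 49.1 and 46.2 RPM in DMSO and 50.9 and 44.0 RPM at 10 µM, with a change of -0.02 (adjusted p = 0.93). The difference between the genes of a pair was not tested. Another divergent pair of members, Zfp668 on the minus strand and Zfp646 on the plus strand of chromosome 7, has 876 bases between the starts. Zfp668 was lower at 10 µM in both pairs, with ratios of 0.837 and 0.854, and was not called (log2 change -0.23, adjusted p = 0.37). Zfp646 was higher in both pairs, with ratios of 1.06 and 1.27, and was not called (0.21, adjusted p = 0.080).

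The shared run holds CACGTG, the E-box letters that read alike on both strands. In the 250 bases before a start, CACGTG was found in 9.21% of 152 windows of 124 members and in 6.02% of all 32851 windows of the RefSeq table. CCGGAA, on either strand, was found in 27.6% of the members' windows and 12% of all windows, CCAAT in 52% and 33.8%, and GGGCGG in 40.1% and 32.7%. Each word was counted on its own, so that matches of different words may overlap, and the words were chosen with the shared run in view. CACGTG and CCGGAA lie in the run. GGGCGG lies only across its edge in the Zfp942/Zfp943 span, and CCAAT is in neither span. They describe letters, not bound sites.

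The 6 members of the cluster at chr8:69209045-69774911 were all higher at 10 µM in both pairs. Their summed level was 150.5, 155.1 and 172.6 RPM in DMSO, 180.0 and 181.1 RPM at 10 µM, 183.8 RPM at 20 µM and 195.5 RPM at 30 µM, so that the sums of all 4 inhibitor libraries exceeded those of all 3 DMSO libraries. Against the DMSO library of the same pair or set, the ratios were 1.20, 1.17, 1.06 and 1.13. Without Zfp866, the highest member of this cluster, the sums were 93.7 to 111.3 RPM in set 1 and 127.2 to 138.6 RPM in set 2. DMSO 3 then exceeded both 10 µM libraries, so the order of the full sums rested on Zfp866. Zfp963 and Zfp866, neighbours on the minus strand, were called. Zfp963 was at 3.73, 4.28 and 3.12 RPM in DMSO, 5.20 and 7.71 RPM at 10 µM, 6.24 RPM at 20 µM and 7.96 RPM at 30 µM, with every inhibitor library above every DMSO library (log2 change at 10 µM 0.56 ± 0.17 SE, adjusted p = 0.023). Zfp866 was at 56.8, 60.8 and 45.4 RPM in DMSO, 68.8 and 74.0 RPM at 10 µM, 53.4 RPM at 20 µM and 56.9 RPM at 30 µM (0.27 ± 0.08 SE, adjusted p = 0.023; edgeR 0.073). The transcripts of Zfp963 and Zfp866 shared 38.9% and 10.8% of their windows with other gene models, chiefly Gm20422, which overlaps both genes, and with genes elsewhere Zfp963 shared 1.22% and Zfp866 0%. Zfp964, another member of this cluster, was at 3.16, 3.89 and 0.978 RPM in DMSO, 4.93 and 5.20 RPM at 10 µM, 1.72 RPM at 20 µM and 2.91 RPM at 30 µM and was not called (adjusted p = 0.11).

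The cluster of 9 members at chr7:127244525-127885996, which holds Zfp629, gave sums of 136.1, 123.6 and 84.9 RPM in DMSO, 144.8 and 155.8 RPM at 10 µM, 75.5 RPM at 20 µM and 89.7 RPM at 30 µM. In both pairs 6 of 9 members were higher at 10 µM and 1 was lower. The 8 members at chr13:67038593-67683512 had 5 higher in both pairs and none lower, and none was called. In contrast, of the 8 members at chr17:32765496-33304689, 2 were higher and 4 were lower in both pairs, and the sums stayed between 299.8 and 322.7 RPM in all 7 libraries. Without Zfp871, its highest member, the sums were 171.9 to 194.9 RPM in set 1 and 143.2 to 152.5 RPM in set 2. The 2 clusters of chromosome 17 thus had different counts, but no test of a difference between clusters was made.

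**Figure D4:**
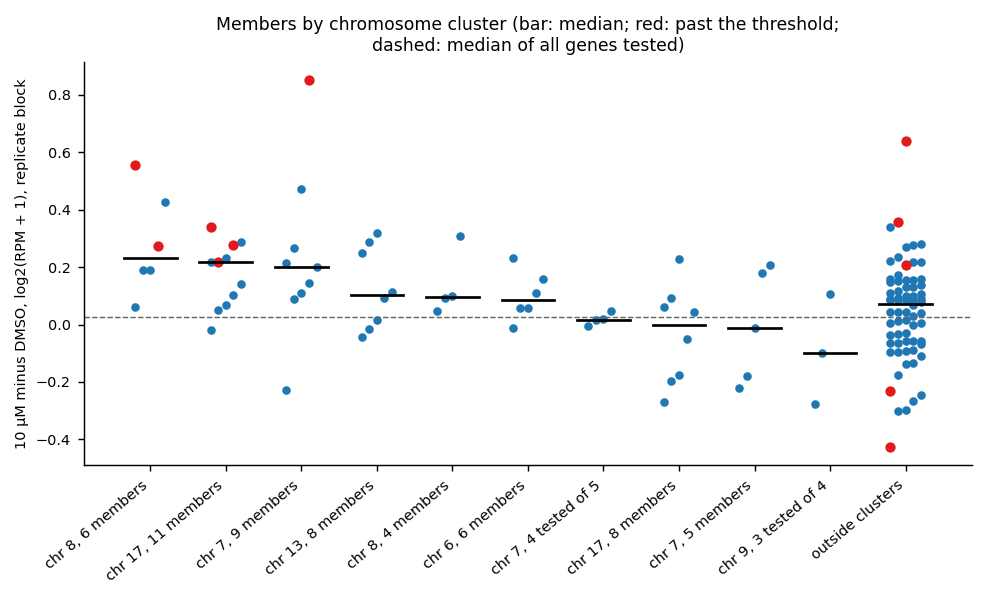
Log2 change at 10 µM with the replicate block (y axis) for each tested member (points; red where past the threshold) in the 10 clusters and outside them (x axis), with the median of each as a bar. Cluster medians run from 0.23 (chromosome 8, 6 members) to -0.10 (chromosome 9, 3 tested), around a median of all genes tested of 0.03 (dashed line).

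The second comparison asked for a trend over the doses in all 7 libraries. limma called 0 members and 0 genes (background 0%), with 9 members and 1174 genes at an unadjusted p under 0.05 (background 8.63%), and edgeR gave 14 members at that level (background 9.15%). DESeq2 called 1 member, Zfp819, which fell (0.758%; background 0.949% in either direction and 0.552% lower). With the library set in the fit 0 members were called (background 0.199%). Without DMSO 3, when every library of set 2 is at a high dose, 21 members were called (15.9%; background 18.3%), 11 of them higher (8.33%; background 6.97%) and 10 lower (7.58%; background 11.3%).

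Zfp819, whose product is known to bind Trim28 and to take part in retrotransposon silencing, was at 14.5, 13.5 and 11.8 RPM in DMSO, 11.6 and 12.1 RPM at 10 µM, 8.49 RPM at 20 µM and 7.23 RPM at 30 µM. The 2 libraries of the highest doses were the lowest, while DMSO 3 lay between the 10 µM libraries. The slope was -0.27 ± 0.08 (SE) per 10 µM on the log2 scale (limma adjusted p = 0.508; DESeq2 0.030).

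Most of the members with the steepest slopes followed the library sets or a single library. Zfp804b was at 22.9 and 26.5 RPM in DMSO 1 and 2 and 23.8 and 24.3 RPM at 10 µM, and at 60.03 RPM in DMSO 3, 72.7 RPM at 20 µM and 82.8 RPM at 30 µM. Zfp605 likewise was at 21.4 to 23.6 RPM in set 1 and 46.6 to 51.5 RPM in set 2. In the other direction Zfp639 was at 77.5 to 86.0 RPM in set 1 and 31.03 to 37.9 RPM in set 2, and Zfp940 at 23.2 to 25.98 RPM and 8.24 to 9.68 RPM. For each of these 4 genes DMSO 3 was closer to the high doses than to the other DMSO libraries, and none was called in the trend over 7 libraries. Zfp688 was at 1.58 RPM in DMSO 3, 0.645 RPM at 20 µM (95% exact Poisson interval 0.237 to 1.40 RPM) and 1.03 RPM at 30 µM, against 5.74 to 8.35 RPM in set 1. Zfp607 was at 8.89, 10.1 and 11.7 RPM in DMSO, 12.7 and 10.6 RPM at 10 µM, 15.4 RPM at 20 µM and 19.0 RPM at 30 µM, a slope of 0.28 ± 0.08 (SE) per 10 µM that did not pass the test (adjusted p = 0.508).

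The steepest rising slope among members rested on 1 library. Zfp791, at chr8:85109166-85123095 on the minus strand, was at 38.4 RPM at 20 µM (95% exact Poisson interval 34.5 to 42.6 RPM, 357 read pairs) and at 1.68 to 2.93 RPM in the 6 other libraries, 30 µM included. The interval covers counting error only, and the cause was not tested. Zfp654 was also highest at 20 µM, with 47.9 RPM against 29.0 to 32.1 RPM elsewhere.

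At the high doses no replicate exists and no test was made. The 20 µM library exceeded DMSO 3 for 62 of 132 members (47%), against 38.3% of all genes and 42.3% of Zfp1 to Zfp599, and the 30 µM library for 86 (65.2%), against 56.8% and 60.8%, and these counts share the DMSO 3 library. Among the members tested, Zfp937, Zfp963 and Zfp964 were at least 2-fold above DMSO 3 at 30 µM (2.27%, against a background of 2.36%), with ratios of 2.12, 2.55 and 2.98. At 20 µM, Zfp677 and Zfp791 were at least 2-fold above DMSO 3 (1.52%, against a background of 3.18%). Zfp688, Zfp707 and Zfp750 were at or below 0.5 times DMSO 3 at 20 µM (2.27%, against a background of 3.24%). Zfp608 was the only tested member at or below 0.5 times DMSO 3 at 30 µM (0.758%, against a background of 1.34%), with 6.85 RPM against 15.2 RPM. All 4 inhibitor libraries exceeded all 3 DMSO libraries for 6 tested members (4.55%, against a background of 1.94% and 3.17% of Zfp1 to Zfp599), namely Zfp644, Zfp786, Zfp820, Zfp846, Zfp948 and Zfp963. They lay below all 3 for Zfp608 and Zfp697 (1.52%; background 1.87%). Zfp608 was at 13.6, 10.5 and 15.2 RPM in DMSO, 9.82 and 9.29 RPM at 10 µM, 8.92 RPM at 20 µM and 6.85 RPM at 30 µM (slope -0.27 ± 0.09 SE per 10 µM, adjusted p = 0.508).

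**Figure D5:**
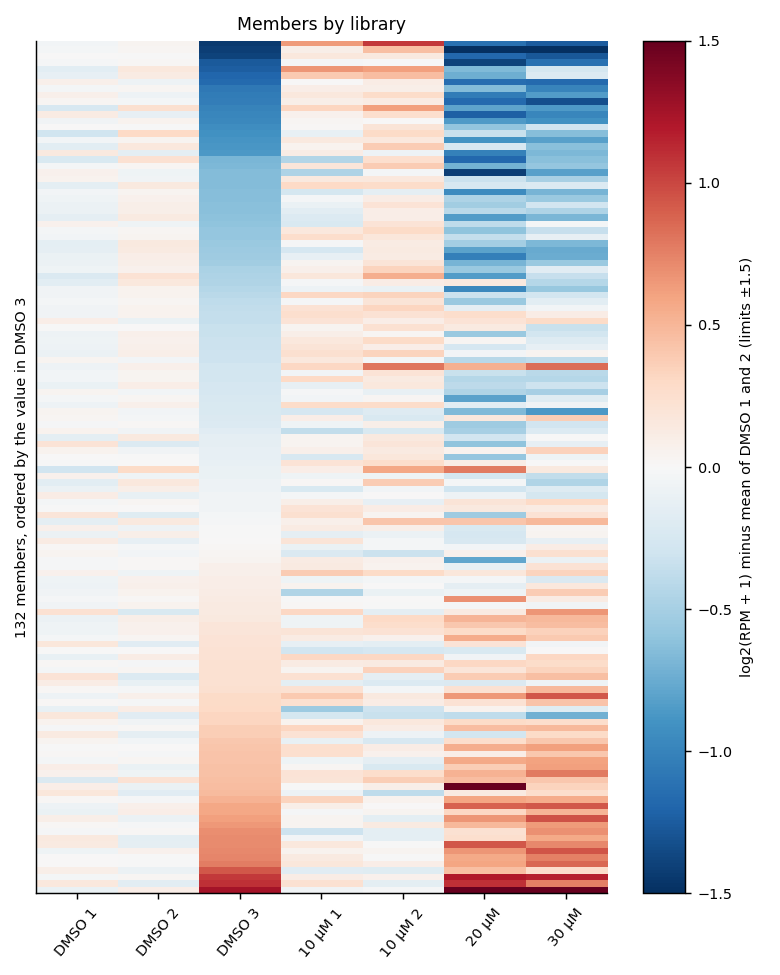
Difference in log2(RPM + 1) from the mean of DMSO 1 and 2 (colour, limits ±1.5) for the 132 tested members (rows, ordered by the value in DMSO 3) in the 7 libraries (columns). All columns share the same baseline, so likeness between columns is not independent evidence, and in the row of Zfp791 the 20 µM cell stands apart from DMSO 3 and 30 µM.

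Levels of many members also separated the library sets. All 3 libraries of set 2 lay above all 4 of set 1 for 28 members (21.2%; background 18.7%) and below for 49 (37.1%; background 39.8%), shares close to those of all genes. The sum of the 4 members at chr8:71882067-71970333, among them Zfp961, was 146.9 to 165.0 RPM in set 1 and 229.0 to 267.2 RPM in set 2, a ratio of means of 1.52. Most of this sum was Zfp961, and without it the ratio was 1.19, with sums of 47.7 to 58.2 RPM in set 1 and 57.9 to 66.9 RPM in set 2 that overlapped. Zfp961 and Zfp882 were the 2 of the 4 members with set 2 wholly above set 1. The chromosome 7 cluster with Zfp629 was at 123.6 to 155.8 RPM in set 1 and 75.5 to 89.7 RPM in set 2, a ratio of 0.595, or 0.754 without Zfp646, its highest member. Since set 2 holds both high doses and 1 DMSO library, dose and set cannot be told apart in these ratios. Between DMSO libraries alone, DMSO 3 was at 1.49 times the mean of DMSO 1 and 2 for the chromosome 8 sum and 0.654 times for the chromosome 7 sum. Against DMSO 3, the 20 µM and 30 µM sums were at 1.00 and 1.17 times on chromosome 8 and 0.889 and 1.06 times on chromosome 7.

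Members with a known role were then counted. Of 9 tested (a list drawn up with earlier results of these data known), Zfp706 alone was called with the block (background 7.5%) and none in the trend (background 0%). Zfp809, which recognises the primer binding site of murine leukaemia virus, was at 82.5, 85.9 and 113.7 RPM in DMSO, 80.8 and 76.4 RPM at 10 µM, 125.6 RPM at 20 µM and 128.9 RPM at 30 µM (adjusted p at 10 µM = 0.52). Zfp961, another protein directed at retroviral primer binding sites, was at 99.2, 108.6 and 171.1 RPM in DMSO, 107.8 and 106.7 RPM at 10 µM, 165.0 RPM at 20 µM and 200.2 RPM at 30 µM (adjusted p = 0.78). In both genes DMSO 3 was nearer to the high doses than to the other DMSO libraries. Zfp932, which acts on endogenous retroviruses, ranged from 44.1 to 56.0 RPM (adjusted p = 0.46), and Zfp708 and Zfp600, also directed at retroelements, ranged from 19.2 to 29.5 RPM (adjusted p = 0.67) and from 138.5 to 219.5 RPM (adjusted p = 0.51). Zfp622, a factor in maturation of the large ribosomal subunit, was at 30.2 to 46.9 RPM (adjusted p = 0.68), and Zfp830, a nuclear protein required in early embryos, at 13.8 to 20.9 RPM (adjusted p = 0.61).

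The corepressor genes on which KRAB zinc finger proteins act were counted beside them. Of 25 tested genes of the Trim28 and H3K9me3 machinery, 0 rose and 1 fell with the block (background 4.13% and 3.38%), with a median log2 change of -0.03. The gene that fell was Atf7ip, the nuclear partner of Setdb1, at 338.2, 404.1 and 308.9 RPM in DMSO, 265.6 and 327.6 RPM at 10 µM, 215.1 RPM at 20 µM and 235.3 RPM at 30 µM (-0.32 ± 0.06 SE, adjusted p = 4.2e-05). Trim28 was at 205.0, 186.2 and 142.0 RPM in DMSO and 199.5 and 214.5 RPM at 10 µM (adjusted p = 0.53), and Setdb1 at 146.1, 131.7 and 177.8 RPM and 156.7 and 144.7 RPM (adjusted p = 0.34). Of 11 tested zinc finger genes outside the number range that are known for retroelement or imprint control, 1 rose and 0 fell (background 4.13% and 3.38%). The gene that rose was Zfp445, a guardian of imprints, with 0.23 ± 0.07 (SE; adjusted p = 0.026). Zfp445 was at 116.4, 124.7 and 98.5 RPM in DMSO, 139.8 and 142.6 RPM at 10 µM, 127.5 RPM at 20 µM and 117.9 RPM at 30 µM.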

How the data were processed

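ChrRNA-seq libraries of C7H8 mES cells (7 in all) were used. Per the study's methods, rRNA reads were taken out with bowtie2 and the authors mapped what remained to N-masked mm10 with STAR, used unique alignments only, counted read pairs over exons and introns by strand with featureCounts, and deposited them as RPM scaled to the total on genes with edgeR. The allelic ratios were not used here. Whole read pairs were recovered from the RPM steps for 100% of values (tolerance 0.1).

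All genes whose mean reached 1 RPM were tested with limma 3.58.1 (eBayes with trend) on log2(RPM + 1), with Benjamini-Hochberg adjusted p under 0.05 over all 13599 genes. Alternatives were the replicate block, edgeR 4.0.16 and DESeq2 1.42.0 (R 4.3.3) on the recovered read pairs, a pseudocount of 0.1, no filter or a filter at 5 RPM, TMM factors, no eBayes trend, each replicate left out, the library set, and any dose as 1 term. The numbers 1 and 2 come from the labels. With the block, 2 pairs leave 1 residual degree of freedom, and limma pools the spread over genes. The labels do not say whether the replicates are separate cultures. A general statement of the study says that its RNA-seq used independent clones or independent repeats of a clone, without naming these libraries. The p-values therefore measure the spread between these libraries. Poisson intervals (95%) cover counting error only. On simulated counts in which 200 of 13599 genes changed by 1 on the log2 scale, limma called 194 without the block and 191 with it at 10 µM, and 183 in the trend, with 9, 5 and 7 other genes. The simulated counts had the same small spread for every gene and no difference between library sets. They check that the fits run as intended, and do not show which changes the fits could find in these libraries.

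The members and lists were chosen with earlier results of these data known. Genes named are those called with the block, the 5 steepest slopes in each direction, the 5 highest levels, a list of known roles, Trim28 and Setdb1. Zfp608, Zfp654 and other genes named for a pattern or a count were chosen after their values were seen. Finger patterns were sought in translated GENCODE M21 coding sequences of the longest form, and motifs in RefSeq promoter windows with Python 3.11.15 and pandas 2.3.3.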

Additional observations from a re-analysis of the deposited data

How the results depend on the processing

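At 10 µM, 0 members were called as reported. With the replicate block the count was 11, with edgeR and the block 6, with the block and a pseudocount of 0.1 it was 12 and with the block and TMM factors 6. Over all genes these counts were 1020, 837, 1023 and 868, with 1 gene by DESeq2 and 0 to 1 when a replicate was left out. Leaving out DMSO 3 alone, with no replicate block, called 0 members and 1 gene. In the dose trend, DESeq2 called 1 member and 129 genes, the library set gave 27 genes, and leaving out a replicate gave 0 to 21 members and 0 to 2485 genes, the highest counts without DMSO 3. The block with TMM factors or a pseudocount of 0.1 was added after seeing the data.

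Directions that turned at 10 µM all belonged to values that were not called, and the cause was not tested. With the replicate block, edgeR and the block, the block and a pseudocount of 0.1, and the block and TMM factors, the log2 changes were 0.0888, 0.0680, 0.0894 and 0.0552 for Zfp600, 0.0468, 0.0248, 0.0473 and 0.0133 for Zfp961, and 0.117, 0.0966, 0.118 and 0.0838 for Setdb1, against -0.127, -0.192 and -0.0011 as reported. When a replicate was left out, Zfp600 ranged from -0.242 to 0.0888, Zfp961 from -0.343 to 0.0468 and Setdb1 from -0.0976 to 0.117, each highest without DMSO 3. With edgeR, DESeq2 and TMM factors, Zfp708 was at -0.0248, -0.0327 and -0.0260 and Zfp932 at -0.0477, -0.0549 and -0.0370, against 0.063 and 0.054. Zfp708 ranged from -0.118 to 0.245, lowest without 10 µM replicate 2. In the trend with the library set, the slopes of 43 of 132 members changed sign, none of them called. Among those named for their slope, Zfp874b and Zfp940 turned to 0.0237 and 0.0663. Turns among those called at 10 µM included Zfp629 (from -0.27 to 0.21), Zfp672 (from -0.135 to 0.066), Zfp942 (from -0.0044 to 0.094) and Zfp710 (from 0.11 to -0.07). Of 479 values under alternatives, 414 kept their direction and side of the threshold.

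Groups of 1 to 3 libraries limit every statement, and values at 20 µM rest on 9300549 read pairs.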
